A study of Sus scrofa with 24 samples.

Results

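The genes described here are a set of 50 that act in copying DNA and in dividing the cell, chosen by name to gauge how much proliferation remained in the hippocampus of young piglets. The members are listed by symbol, with no threshold on a measured value, although earlier results of these data were known when the list was made. Of the 50, 47 were found among the 38882 genes of the count files by their gene identifiers, and MCM6, MCM7 and BIRC5 were not analysed here. The 47 fall into 8 role groups, from the licensing of replication origins to the separation of the daughter cells.

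Hippocampal RNA was sequenced from 24 piglets of the cross PIC Camborough × PIC 359, all 14 days old, with 6 in each of 4 groups. Small for gestational age (SGA) piglets, of low birth weight, were compared with appropriate for gestational age (AGA) littermates of the same sex. Each littermate pair was fed a control formula (CON), whose fat was triglyceride, or a hydrolyzed fat formula (HF), in which part of the triglyceride was replaced by free fatty acids, monoacylglycerol, cholesterol and lecithin, from the second day of life. All 4 groups (SGA HF, SGA CON, AGA HF and AGA CON) shared age, breed and formula rearing. There were 12 litters with 1 pair each, 6 on each diet, and the labels put 6 litters in each of 2 cohorts. Of the litters 6 were male and 6 female, with more male litters in cohort 1 and more female litters in cohort 2. The piglets were born at term, and SGA and AGA were defined by fixed ranges of birth weight, not by rank within the litter.

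Before a cell divides it loads helicases on its replication origins, opens the DNA, and copies it with polymerases held by a sliding clamp, while enzymes of nucleotide synthesis supply the building blocks. Cyclins with their kinases time these steps, mitotic kinases and motor proteins build the spindle, a checkpoint holds the chromosomes until each is attached, and the anaphase-promoting complex then lets them part. In the mammalian hippocampus most neurons no longer divide after birth. Progenitors of the dentate gyrus, oligodendrocyte progenitors, microglia and endothelial cells still do, and the messenger RNA of genes such as MKI67 and TOP2A is high mainly in cells that are in the cycle.

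Total counts on listed genes ran from 6017336 to 9284355 per library, so that 3 counts correspond to 0.323 to 0.499 CPM (counts scaled to a common library total). Levels below are CPM on library sizes adjusted by the trimmed mean of M values (TMM). Neuron genes marked the tissue as labelled, with SLC17A7, the glutamate transporter of excitatory neurons, at a mean of 3380 CPM and PROX1, a dentate granule cell factor, at 48.2 CPM, while EOMES, an intermediate progenitor factor, had no count in any library. A pair of libraries stood apart. AGA CON replicate 2 and AGA HF replicate 4 had the lowest summed CPM of the neuron marker list, 2799 and 3531 against 4628 to 7146 in the other 22, and the highest sums of the astrocyte, microglia, endothelium and neural progenitor lists. Another library, SGA HF replicate 4, held pituitary RNA, with a summed pituitary marker level of 361.9 CPM. AGA HF replicate 4 and SGA HF replicate 4 are littermates. Fits that left out these libraries were also run, and their values are given beside some of the results only. For size and the interaction, the fits without SGA HF replicate 4 are not given beside each gene. In bulk tissue, fewer cells of a type and less RNA per cell cannot be told apart.

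Levels were compared between genes as CPM per kb of counted exon length unless stated otherwise. The gene of the set with the highest level was BUB3, a mitotic checkpoint protein that also acts outside mitosis, at 20.8 ± 2.14 CPM per kb (SD, n = 24). RRM1, the large subunit of ribonucleotide reductase, followed at 15.6 ± 1.66 CPM per kb. UBE2C, the ubiquitin-conjugating partner of the anaphase-promoting complex, was at 10.1 ± 1.99 and CCNE1, the cyclin of the entry into DNA synthesis, at 8.48 ± 1.30 CPM per kb. The order of neighbours such as UBE2C and CCNE1 lies within the spread of the libraries. BUB3, RRM1 and CCNE1 together made up 36.7% of the summed CPM of the 47 genes, so a sum over the set follows these 3 genes most.

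Per kb, the genes most used to count dividing cells were far lower. MKI67, which coats mitotic chromosomes and is the usual marker of proliferation, was at 1.19 ± 0.289 CPM per kb, and 78.4% of the 16326 genes tested had a higher level. TOP2A, the topoisomerase that untangles copied DNA, was at 1.503 ± 0.257 CPM per kb, and CDK1, the kinase of mitotic entry, at 1.26 ± 0.362 CPM per kb. PCNA, the sliding clamp, which also serves DNA repair, was higher, at 7.51 ± 1.25 CPM per kb. The order depends on the counted length, 9550 bases for MKI67 and 1152 for PCNA. Without division by length MKI67 was at a mean of 11.3 CPM and PCNA at 8.66. The part of RNA integrity in the levels per kb was not tested. The median over the 47 genes was 1.52 CPM per kb against 5.40 over all genes tested, and 9 of the 47 lay above that value.

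**Figure D1:**
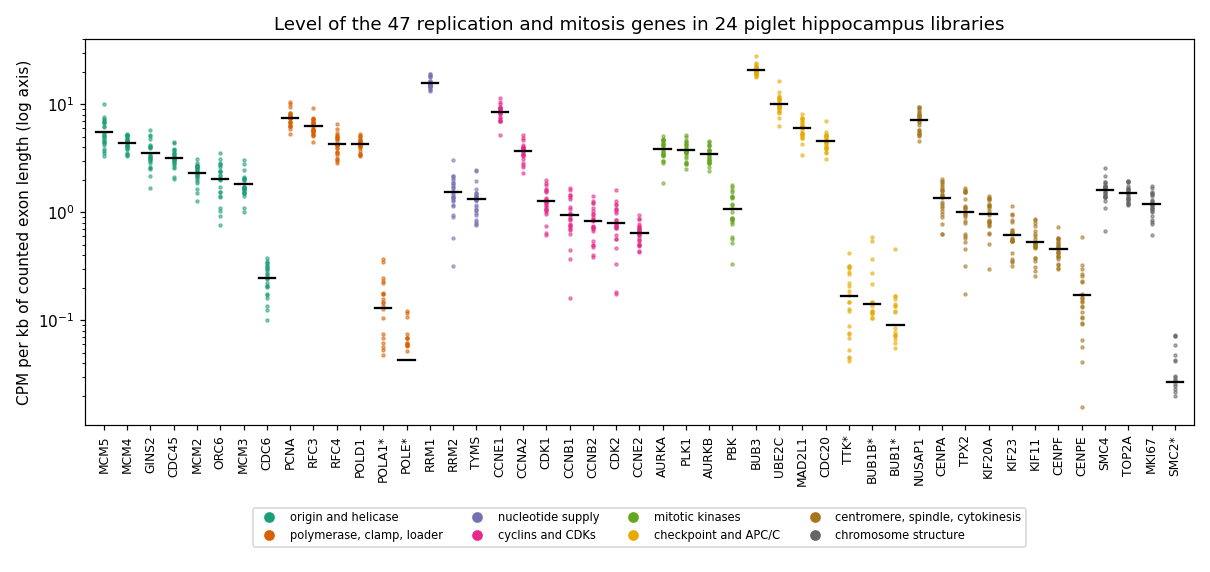
CPM per kb of counted exon length on a log axis for each of the 47 genes, grouped and coloured by role, with 1 point per library (24 libraries, those without a count not drawn) and a black bar at the mean. Asterisks mark the 6 genes below the expression filter. BUB3 at 20.8 and RRM1 at 15.6 CPM per kb top the set, and MKI67, TOP2A and CDK1 lie between 1.19 and 1.503.

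Within the role groups the levels ranged widely. Among the origin and helicase genes MCM5, a helicase subunit, had the highest mean, 5.50 ± 1.61 CPM per kb, over a partial gene model of 1001 bases that makes this level uncertain. MCM4, another subunit, was at 4.39 CPM per kb, within the SD of MCM5, and CDC6, the helicase loader, was lowest at 0.247 ± 0.078. Among the polymerases, clamp and clamp loaders POLD1, the catalytic subunit of the lagging-strand polymerase, was at 4.28 CPM per kb, beside the loader subunits RFC3 and RFC4 at 6.27 and 4.29. The mitotic kinases AURKA, PLK1 and AURKB were close together, at 3.85, 3.75 and 3.42 CPM per kb, each within an SD of the next. SMC4, a condensin subunit, led the chromosome structure genes at 1.60 CPM per kb, not apart from TOP2A. NUSAP1, which binds spindle microtubules, was at 7.08 CPM per kb, but the gene model counted here is a single exon interval of 890 bases on chromosome 1 (145140712 to 145141601, Sscrofa10.2), which makes its level per kb uncertain. MKI67 lies on chromosome 14 (149170365 to 149198693) and was counted over 17 exon intervals. TYMS, thymidylate synthase, is split over 2 unplaced scaffolds in this assembly.

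Of the 47 genes, 41 passed the filter of at least 1 CPM in at least 3 libraries. The 6 that did not were TTK, BUB1 and BUB1B of the spindle checkpoint, the catalytic polymerase subunits POLA1 and POLE, and the condensin subunit SMC2, with mean counts of 0.708 to 3.88 per library. Each of the 6 had no count in at least 1 library, and their levels cannot be compared at this depth. The 41 had a median mean count of 44.8 per library, and 13 were under 20. In 26 of the 41 the coefficient of variation over the 24 libraries was less than 1.5 times the one that counting error alone gives. CDK1 had a coefficient of variation of 28.8% against 28.3% from counting, while MKI67 had 24.4% against 10.8%.

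Summed over the 47 genes, the level was nearly the same in the 4 groups. It was 319.9 ± 19.0 CPM in AGA CON, 327.1 ± 20.04 in AGA HF, 314.3 ± 7.85 in SGA CON and 311.0 ± 18.1 in SGA HF (SD, n = 6 each). The highest library was AGA HF replicate 4 at 358.9 CPM and the next AGA CON replicate 2 at 341.6, the 2 libraries low in neuron genes. Without them AGA HF was 320.8 ± 14.1 and AGA CON 315.5 ± 17.7 (n = 5 each). The 4 groups overlapped throughout. Between littermates the SGA piglet had the higher sum in 3 of 12 litters, with SGA to AGA ratios from 0.839 to 1.11. The lowest ratio was the litter of AGA HF replicate 4, and the range over the 10 litters without the 2 libraries was 0.926 to 1.11. These sums carry no test, since the set was named with earlier results of these data known.

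**Figure D2:**
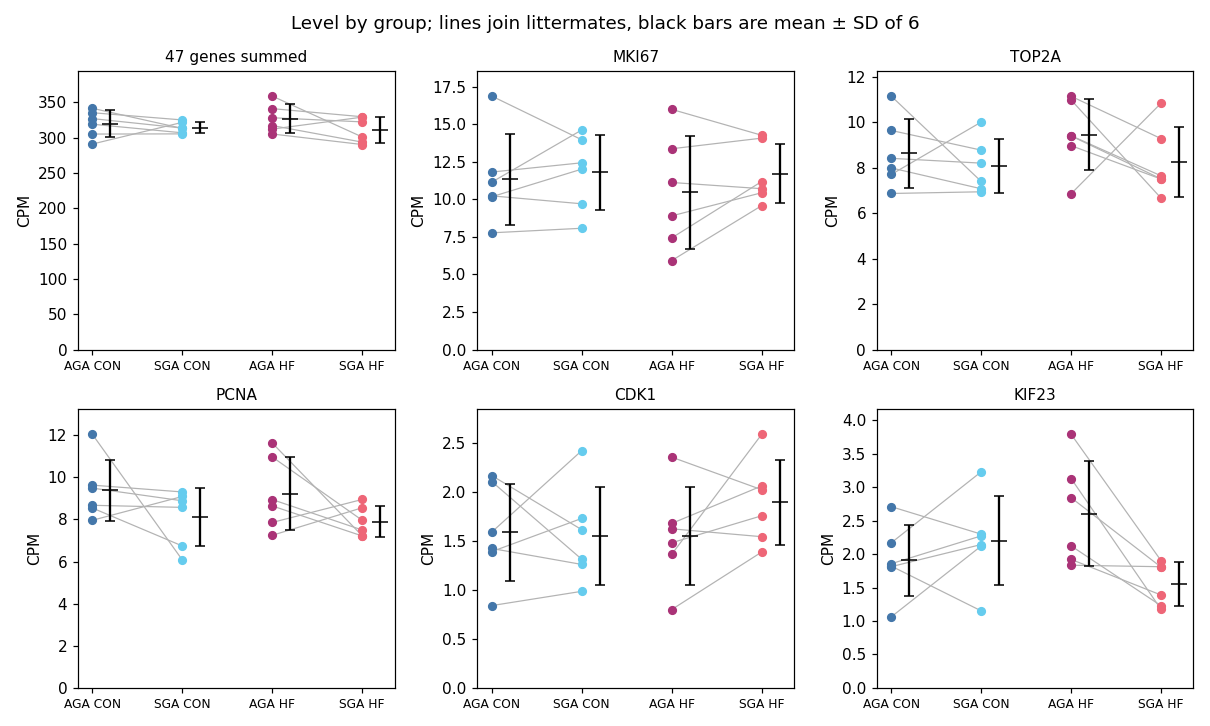
CPM of the 47 genes summed and of 5 single genes in the 4 groups, 6 piglets each. Points are libraries, grey lines join littermates, and black bars give the mean ± SD. The groups overlap in every panel. KIF23 in HF litters is the panel in which all 6 lines go down from AGA to SGA.

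The main effect of size asked whether SGA and AGA piglets differed. In the fit of 4 groups, sex and 5 surrogate variables (edgeR quasi-likelihood, Benjamini-Hochberg FDR over 7 contrasts together, called at FDR p under 0.4), 0 of the 41 genes were called, where 0.478% of all genes tested were called. At an unadjusted p under 0.05 there was 1 of 41 (2.44%) against 10.6% of all genes. DESeq2 and limma voom also called 0. The standard error of the log2 fold change had a median of 0.137 over the 41, and their fold changes ran from -0.24 to 0.53 on the log2 scale. By this fit 26 of the 41 were higher and 15 lower in SGA, with a median log2 fold change of 0.02 against -0.002 over all genes.

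The gene with the smallest p for size was MKI67. It lay between 7.77 and 16.9 CPM in AGA CON with a median of 10.7, between 5.92 and 16.0 in AGA HF with a median of 10.0, between 8.07 and 14.6 in SGA CON with a median of 12.2, and between 9.58 and 14.3 in SGA HF with a median of 10.9. The groups overlapped, and the SGA piglet was higher in 8 of 12 litters. The fit gave a log2 fold change of 0.28 (SE 0.096, FDR = 0.581), which was not called. Adjusted within the size contrast alone the FDR p was 0.293, which is under 0.4, as it then was for 1200 of all genes tested. The estimate depended on the surrogate variables, since with sex alone it was 0.11 (SE 0.15, FDR = 0.958) and with litter as a block 0.14 (SE 0.094, FDR = 0.760).

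The size estimates of TOP2A and PCNA were below 0 and that of CDK1 above 0, none called. TOP2A lay between 6.86 and 11.1 CPM in AGA CON, 6.85 and 11.1 in AGA HF, 6.94 and 10.0 in SGA CON and 6.65 and 10.8 in SGA HF, with medians of 8.20, 9.40, 7.79 and 7.57. The SGA piglet was the lower in 9 of 12 litters and the log2 fold change was -0.02 (SE 0.11, FDR = 0.987) in the main fit and -0.15 (SE 0.11, FDR = 0.802) in the pair fit. PCNA lay between 7.96 and 12.0 CPM in AGA CON, 7.25 and 11.6 in AGA HF, 6.08 and 9.31 in SGA CON and 7.22 and 8.95 in SGA HF, with medians of 9.08, 8.79, 8.73 and 7.73. The SGA libraries reached less high, yet all groups overlapped, and the log2 fold change was -0.12 (SE 0.10, FDR = 0.871) and by pair -0.21 (SE 0.11, FDR = 0.677). CDK1, counted by 5 to 19 reads per library, lay between 0.840 and 2.169 CPM in AGA CON, 0.800 and 2.36 in AGA HF, 0.986 and 2.43 in SGA CON and 1.39 and 2.59 in SGA HF. Its log2 fold change was 0.25 (SE 0.22, FDR = 0.882). In AGA CON replicate 2 MKI67, TOP2A and PCNA were each at their highest of all 24 libraries. Without this library and AGA HF replicate 4 the main fit gave size estimates of 0.25 for MKI67 (SE 0.11, FDR = 0.725), -0.004 for TOP2A (SE 0.12, FDR = 0.9997), -0.10 for PCNA (SE 0.10, FDR = 0.921) and 0.25 for CDK1 (SE 0.22, FDR = 0.907). The litter fit gave 0.21, -0.04, -0.11 and 0.23, so that the TOP2A and PCNA values by pair were nearer 0 without them.

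Next by p came ORC6, AURKB, MCM2 and CCNE1, none called. ORC6, a subunit of the origin recognition complex, was 0.53 higher in SGA on the log2 scale (SE 0.26, FDR = 0.737), on a mean of 10.5 counts. MCM2, a helicase subunit, was 0.21 higher (SE 0.13, FDR = 0.803). AURKB, the kinase of the chromosomal passenger complex, was 0.23 lower (log2 fold change -0.23, SE 0.12, FDR = 0.757), with the SGA piglet lower in 9 of 12 litters. CCNE1 had a log2 fold change of -0.13 (SE 0.095, FDR = 0.841) and was also lower in the SGA piglet in 9 of 12 litters.

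Compared within litters, the set leaned the other way. With litter as a block, 0 of 41 genes were called, where 2.57% of all genes were, and 0 of 41 had an unadjusted p under 0.05 against 12.4% of all genes. DESeq2 and limma voom with the same block also called 0. Here 29 of the 41 were lower in SGA, and the median log2 fold change was -0.11, while that of all genes was 0.003. Taken litter by litter, the median difference over the 41 lay between -0.28 and 0.18, with an SD of 0.11 over the 12 litters. The lowest was the litter of AGA HF replicate 4. Several marker lists of other cells leaned the same way in the litter fit. Lower in SGA were 6 of 6 microglia, 5 of 7 oligodendrocyte progenitor, 4 of 6 astrocyte and 3 of 5 neural progenitor markers. Of these markers 1 was called. Of the neuron markers 5 of 6 were higher. These counts include the AGA libraries low in neuron genes, and counts without them are not given here. The summed microglia markers of these 2 libraries were 237.1 and 215.2 CPM, against 73.0 to 186.2 in the other 22. The summed oligodendrocyte progenitor markers were 1090 ± 126.1 CPM in AGA and 998.2 ± 125.2 CPM in SGA piglets, and the neural progenitor markers 715.7 ± 120.1 and 649.0 ± 58.3 CPM (SD, n = 12). The 2 libraries low in neuron genes, both AGA, raised these AGA means. They were at 1228 and 1398 CPM for the first list, where the other 22 reached 1257. For the second they were at 952.1 and 942.7 CPM, where the other 22 reached 766.8. Medians in AGA and SGA were 1056 and 982.0 CPM for the first list and 667.2 and 627.6 CPM for the second. These sums follow a few genes and do not count progenitor cells. OLIG1 had a mean of 651 CPM of the 1044 of the first list over all libraries. VIM had 425 and HOPX 191 CPM of the 682 of the second. The part of these markers in the result was not tested. The median of the 41 therefore had opposite signs in the 2 fits, and neither fit called any gene. With sex alone in place of the surrogate variables the median was also -0.11. Without the 2 libraries low in neuron genes the litter fit gave a median of -0.03, with 25 of 41 lower. By litter, 8 of the 41 genes (19.5%) were higher in the SGA piglet in at most 3 of 12 litters, against 11.8% of all genes tested. They were CDC6, PCNA, RFC3, CCNE1, AURKA, AURKB, NUSAP1 and TOP2A. PLK1, a mitotic kinase, was the 1 gene higher in at least 9 litters, where 10.8% of all genes were.

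**Figure D3:**
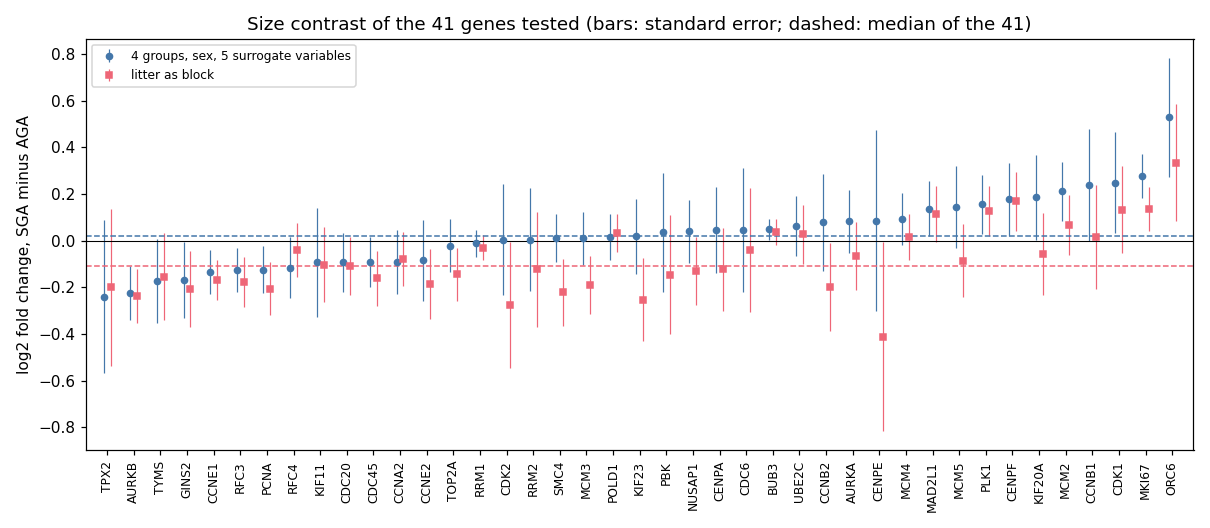
Log2 fold change, SGA minus AGA, of the 41 genes tested, in the fit with surrogate variables (circles) and with litter as a block (squares). Bars give the standard error and dashed lines the median of the 41, 0.02 and -0.11. ORC6 and MKI67 are at the right, and most squares lie below their circles.

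Within each diet no gene was called either. For SGA CON against AGA CON it was 0 of 41 (0.129% of all genes), and 3 had an unadjusted p under 0.05 (6.59% of all genes), AURKB, KIF23 and MKI67. For SGA HF against AGA HF it was 0 of 41 (0.288% of all genes), and 0 had an unadjusted p under 0.05 (8.02% of all genes). DESeq2 and limma voom called 0 of 41 in all 7 contrasts of this fit. With litter as a block 0 of 41 were called on either diet, where 1.26% of all genes were called on CON and 0.888% on HF. At an unadjusted p under 0.05 there were 2 on CON, AURKB and GINS2 (8.64% of all genes), and 1 on HF, KIF23 (8.13%). GINS2, a subunit of the replicative helicase complex, was lower in the SGA piglet of all 6 CON litters and in 2 of 6 HF litters. Its log2 fold change by pair was -0.51 (SE 0.23, FDR = 0.596) on CON and 0.09 (SE 0.23, FDR = 0.950) on HF.

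The interaction asked whether the size effect differed between the diets. It was called for 0 of 41 genes (0.049% of all genes), and 2 of 41 had an unadjusted p under 0.05 against 4.01% of all genes. With litter as a block it was 0 of 41 (0.276% of all genes), and 1 had an unadjusted p under 0.05 (3.73%). The smallest p belonged to KIF23, the kinesin of the central spindle that is needed for cytokinesis. It lay between 1.06 and 2.71 CPM in AGA CON with a median of 1.84, between 1.83 and 3.79 in AGA HF with a median of 2.48, between 1.151 and 3.23 in SGA CON with a median of 2.21, and between 1.17 and 1.90 in SGA HF with a median of 1.60. SGA HF overlapped AGA HF only at its upper end. The SGA piglet was higher in 4 of 6 CON litters and in 0 of 6 HF litters, and the interaction was -0.97 on the log2 scale (SE 0.29, FDR = 0.485), or -0.94 (SE 0.36, FDR = 0.507) with litter as a block. AGA HF replicate 4 held the highest KIF23 level, 3.79 CPM, and without both libraries low in neuron genes the interaction was -0.97 (SE 0.35, FDR = 0.640). In cohort 1 alone it was -0.85 and in cohort 2 alone -1.04. KIF23 was counted by 7 to 28 reads per library.

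The next 4 genes in the interaction had wide errors. CDC45, which activates the helicase, was at 0.41 (SE 0.20, FDR = 0.725) and GINS2 at 0.56 (SE 0.31, FDR = 0.780). CCNB2, a mitotic cyclin, was at 0.68 (SE 0.38, FDR = 0.782), and CENPA, the histone of the centromere, at -0.57 (SE 0.34, FDR = 0.802). For CDC45 and CENPA the sign turned in cohort 2 alone, to -0.01 and 0.37.

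Diet was tested in the same fit and, since a litter had 1 diet, also on the summed counts of littermates. For HF against CON 0 of 41 genes were called (0.159% of all genes), and 1 had an unadjusted p under 0.05 against 7.09% of all genes. Over litters 0 of 41 were called (0.00613%), and 2 had an unadjusted p under 0.05, TYMS and RRM2, both of nucleotide synthesis, against 3.98% of all genes. For AGA piglets alone 0 of 41 were called (0.0674% of all genes), and 1 had an unadjusted p under 0.05, BUB3 (6.09% of all genes). For SGA piglets alone it was 0 of 41 (0.0919%), and 4 had an unadjusted p under 0.05, KIF23, CENPA, TYMS and GINS2 (5.16%). Over litters DESeq2 and limma voom also called 0 of 41 for diet.

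TYMS, which makes thymidylate, had litter means between 1.29 and 2.62 CPM on CON with a median of 1.76, and between 1.93 and 3.45 on HF with a median of 2.16. The ranges overlapped. The log2 fold change was 0.46 (SE 0.18, FDR = 0.629) over piglets and 0.37 (SE 0.17, FDR = 0.999) over litters. RRM2, the small subunit of ribonucleotide reductase that is made in the DNA synthesis phase, had litter means between 1.22 and 2.84 CPM on CON and between 2.173 and 3.13 on HF. Its log2 fold change was 0.44 (SE 0.23, FDR = 0.761) over piglets and 0.41 (SE 0.19, FDR = 0.999) over litters. RRM1, the partner subunit, had mean levels of 37.8 CPM on CON and 38.0 on HF over litters, and its log2 fold change over litters was -0.0008 (SE 0.065).

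BUB3, CENPA and RFC4 completed the 5 genes with the smallest p for diet. BUB3 was at -0.09 (SE 0.0455, FDR = 0.758), CENPA at -0.36 (SE 0.18, FDR = 0.758) and RFC4 at 0.24 (SE 0.13, FDR = 0.776), all on the log2 scale. For MKI67 the diet effect was -0.16 (SE 0.096, FDR = 0.800), for TOP2A -0.02 (SE 0.12, FDR = 0.991), for PCNA -0.06 (SE 0.10, FDR = 0.953) and for CDK1 -0.04 (SE 0.22, FDR = 0.993). Over litters the median of the 41 was 0.03, with 23 higher and 18 lower, against -0.001 over all genes. Without the litters of both libraries low in neuron genes 1 gene was called, MCM3, a helicase subunit, higher on HF by 0.43 (SE 0.12, FDR = 0.376), where 714 of all genes were called in that fit.

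The labels name 2 cohorts of piglets and do not say how they differed. Of all genes 8.97% were called between cohorts over the litter sums, and 2 of the 41 were (4.88%), TYMS and RFC4. TYMS litter means lay between 1.79 and 3.45 CPM in cohort 1 with a median of 2.16, and between 1.29 and 2.22 in cohort 2 with a median of 1.87. The ranges overlapped, and TYMS fell by 0.48 on the log2 scale in cohort 2 (SE 0.18, FDR = 0.316). RFC4 litter means lay between 5.11 and 7.94 CPM in cohort 1 with a median of 7.44, and between 4.36 and 6.81 in cohort 2 with a median of 5.49. RFC4 fell by 0.32 (SE 0.13, FDR = 0.342). The fit included sex and diet, but the litter ranges are not adjusted for sex, which was unevenly spread over the cohorts. For RFC4 the litter means averaged 7.08 CPM in cohort 1 and 5.51 in cohort 2. They averaged 6.86 CPM in male and 5.73 in female litters. Both were called by limma voom, DESeq2 called RFC4 alone (TYMS FDR = 0.473), and at an FDR p of 0.05 neither was called. Without the litters of both libraries low in neuron genes TYMS was no longer called (-0.53, FDR = 0.570), RFC4 was (-0.57, FDR = 0.199), and MKI67 and CENPF, a kinetochore protein, were called as higher in cohort 2 (0.51, FDR = 0.357, and 0.58, FDR = 0.340), in a fit that called 773 of all genes. Without the litter of SGA HF replicate 4 TYMS (-0.59, FDR = 0.226) and RFC4 (-0.38, FDR = 0.294) were still called. CCNE1 was called as well (0.22, FDR = 0.363), in a fit that called 2408 of all genes.

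The fitted log2 fold changes in cohort 2 were positive, none called, for the 4 mitotic kinases and for the 7 cyclins and their kinases, but CDK1 and CCNB2 were at 0.02 and 0.01 and their litter means were slightly lower in cohort 2 (1.647 against 1.648 CPM for CDK1, 1.73 against 1.74 CPM for CCNB2). For the 3 genes of nucleotide supply they were negative. Over the 41 genes 29 were higher in cohort 2 and 12 lower, with a median of 0.08 against -0.01 over all genes. Microglia markers moved with cohort, with 4 of the 6 listed called higher in cohort 2, as did the oligodendrocyte markers MOG, MAG and CNP and 3 of 7 oligodendrocyte progenitor markers, and their part in the result was not tested. For sex 0 of 41 genes were called over litters (0.190% of all genes), with 1 at an unadjusted p under 0.05, the mitotic cyclin CCNB1 (3.65% of all genes), and DESeq2 and limma voom called 0. Without the litter of SGA HF replicate 4 RRM1 was called as higher in males (0.19, SE 0.072, FDR = 0.399), in a fit that called 841 of all genes.

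**Figure D4:**
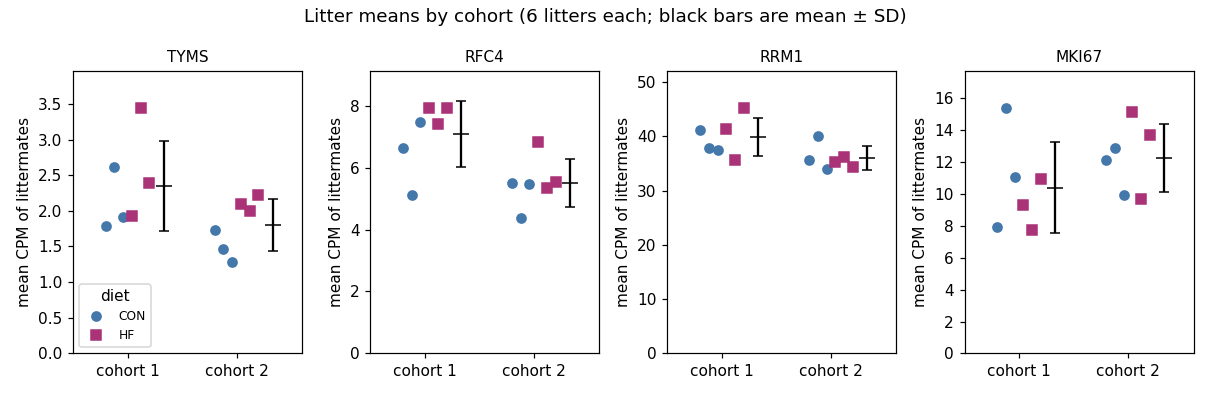
Mean CPM of the 2 littermates for TYMS, RFC4, RRM1 and MKI67 by cohort, 6 litters each, with circles for CON and squares for HF and black bars for mean ± SD. TYMS and RFC4, the 2 genes called, are lower in cohort 2 with overlapping litters. The points are not adjusted for sex, which was unevenly spread over the cohorts. MKI67 is not called.

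Correlations between members from piglet to piglet were mostly weak. Over deviations from the group means in 24 libraries, the median correlation of log2 CPM between 2 members was 0.10 over 820 pairs, against -0.002 over all pairs of genes tested, and 11.1% of the pairs were over 0.4 against 7.44%. The closest pairs were AURKA with NUSAP1 (r = 0.73), AURKA with MCM2 (0.71), KIF23 with SMC4 (0.65), PLK1 with MKI67 (0.65) and PBK, a mitotic kinase, with TOP2A (0.64). MAD2L1, a checkpoint protein, had the lowest median correlation with the other members, -0.20, followed by RFC4 with -0.13. These pairs share libraries, depth and litters, so the values are a description. Counting error weakens r, and in 26 of the 41 genes the coefficient of variation was under 1.5 times the one from counting. Whether the members move together beyond that error cannot be told from these values.

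MKI67 was set against 5 genes over the 12 litter means of log2 CPM. It correlated with TOP2A (r = 0.69, permutation p = 0.0101, adjusted 0.0190; rho = 0.77, p = 0.00468, adjusted 0.0148), with PDGFRA, the receptor that marks oligodendrocyte progenitors (r = 0.72, permutation p = 0.00950, adjusted 0.0190; rho = 0.72, p = 0.00990, adjusted 0.0165), and with AIF1, a microglial protein (r = 0.71, permutation p = 0.0114, adjusted 0.0190; rho = 0.76, p = 0.00592, adjusted 0.0148). Without the 2 litters farthest from the median of the other gene r was 0.59, 0.83 and 0.59. With DCX, of immature neurons, r was -0.08 (permutation p = 0.799; rho = -0.10, p = 0.770), and with CLDN5, of endothelium, 0.10 (permutation p = 0.752; rho = 0.06, p = 0.848).

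The litters of AGA CON replicate 2 and AGA HF replicate 4 had the highest MKI67 means. Without them r was 0.77 for TOP2A, 0.52 for PDGFRA and 0.51 for AIF1 over 10 litters. Within cohort 1 r was 0.71, 0.99 and 0.64 and within cohort 2 it was 0.62, 0.69 and 0.67 for TOP2A, PDGFRA and AIF1 (6 litters each). Of these 6 values PDGFRA in cohort 1 passed 0.05 by an exact permutation test (p = 0.00278). DCX, with a mean of 1.30 CPM, had r of 0.86 in cohort 1 (exact permutation p = 0.0333) and -0.57 in cohort 2 (exact permutation p = 0.244). For CLDN5 r was 0.13 in cohort 1 (exact permutation p = 0.867) and 0.63 in cohort 2 (exact permutation p = 0.2), near that of TOP2A in cohort 2. Litter means share library depth and the mix of cells in the dissected piece, which were not told apart here.

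**Figure D5:**
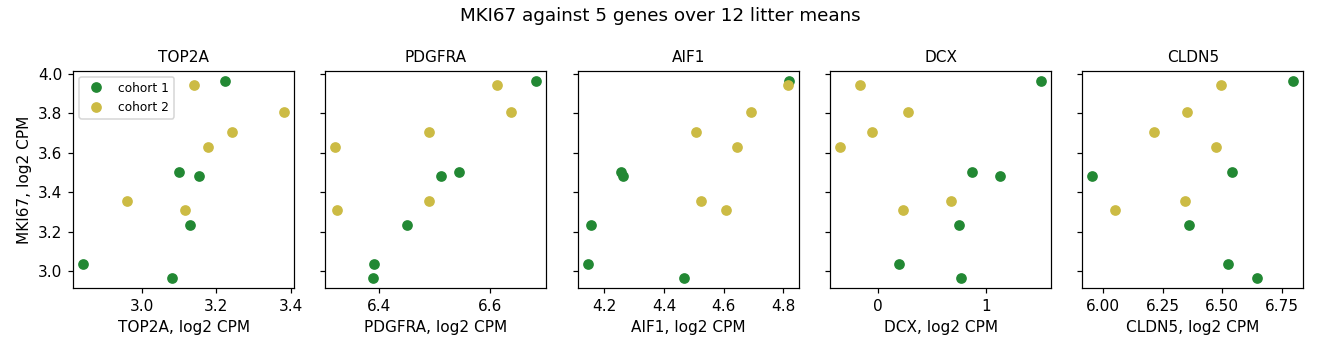
Litter means of log2 CPM (prior count 2) of MKI67 against TOP2A, PDGFRA, AIF1, DCX and CLDN5, 1 point per litter (12 litters), coloured by cohort. MKI67 goes up with TOP2A, PDGFRA and AIF1 (r = 0.69, 0.72 and 0.71) and r is -0.08 with DCX and 0.10 with CLDN5.

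Other genes of the pathway were read from 3 lists, of cycle regulators, further replication genes and further mitosis genes, with 112 tested. For size 0 of 112 were called in the main fit (0.478% of all genes), with 4 higher and 7 lower at an unadjusted p under 0.05 (10.6% of all genes). For diet it was 0 of 112 (0.159% of all genes) and for the interaction 0 of 112 (0.049%). Of the regulators, E2F1, the factor that drives genes of DNA synthesis, had a size effect of -0.05 (SE 0.094, FDR = 0.957) and an interaction of 0.42 (SE 0.17, FDR = 0.666). FOXM1 and MYBL2, which drive genes of mitosis, were at 0.03 (SE 0.11, FDR = 0.983) and 0.06 (SE 0.069, FDR = 0.920) for size. RB1, which restrains E2F factors, was at 0.17 (SE 0.068, FDR = 0.645).

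With litter as a block 2 of the 112 were called for size, against 2.57% of all genes. Both, and the genes called between cohorts, were named after their values were seen. ORC5, an origin recognition subunit, lay between 1.81 and 4.52 CPM in AGA and between 2.81 and 5.42 in SGA piglets, with medians of 3.16 and 4.16. The groups overlapped, the SGA piglet was higher in 10 of 12 litters, and ORC5 rose by 0.47 (SE 0.14, FDR = 0.370). ANLN, anillin, a scaffold of the cleavage furrow that myelinating oligodendrocytes also make, lay between 17.3 and 35.5 CPM in AGA and between 12.8 and 27.1 in SGA piglets, with medians of 24.4 and 18.3. It was lower in the SGA piglet in 11 of 12 litters and fell by 0.35 (SE 0.084, FDR = 0.213). In the same fit the oligodendrocyte markers MBP, MOBP and CNP fell by 0.32, 0.30 and 0.42 on the log2 scale (FDR = 0.182, FDR = 0.213 and FDR = 0.0366), MOG and MAG had log2 fold changes of -0.49 and -0.23 and were not called, and the part of these markers in the ANLN difference was not tested. Between cohorts 5 of the 112 were called, where 8.97% of all genes were, with RFC2, FEN1 and INCENP higher and E2F3 and SKP2 lower in cohort 2.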

How the data were processed

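Total RNA of 24 hippocampi was made into stranded polyA libraries and sequenced. Per the labels and the submitters' processing notes, the authors used bcl2fastq 2.17.1.14, Trimmomatic 0.33, STAR 2.5.2a on Sscrofa10.2 and featureCounts (Subread 1.5.0), and deposited raw gene counts per sample with no normalization. Gene names came from a RefSeq table by gene identifier (23036 of 38882 matched). The blank entry (0.613 to 1.62% of counts) was left out. Coordinates are those of the count files.

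The 50 genes and all lists were chosen with earlier results of these data known. Genes with 1 CPM in at least 3 libraries (16326) were fitted with edgeR 4.0.16 (quasi-likelihood, R 4.3.3, TMM) on the 4 groups, sex and 5 surrogate variables (sva 3.50.0), with Benjamini-Hochberg adjustment over 7 contrasts and calls at FDR p under 0.4, the heat map threshold in the authors' methods. Littermates are paired by the labels. Over all genes littermates' deviations had a mean r of 0.154 (0.0144 to 0.329, over 0.1 in 9 of 12 litters) against 0.0314 for 24 other pairs, so a second fit had litter as a block, adjusted over 4 contrasts. Diet, cohort and sex were also tested by edgeR on littermates' summed counts. Correlations over litters used 100000 resamples. The code was tested on simulated counts. DESeq2 1.42.0 and limma 3.58.1 were alternatives. Named genes were MKI67, TOP2A, PCNA, CDK1, the highest per kb in each role group, members called in any fit, the 5 with the smallest p for size, diet and interaction, and E2F1, FOXM1, MYBL2 and RB1. Others were named after their values were seen. Genes counted over partial models have uncertain levels per kb. One oligodendrocyte marker is not reported here.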

Additional observations from a re-analysis of the deposited data

Results flagged for a closer look

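In 7 of the 92 sets of 6 values checked (each member named by the rule of the methods and the sum of the 47 genes, in each group), 1 library lay far from the others by Dixon's ratio (above its 95% critical value), and chance flags about 1 in 20 groups. BUB3 was 75.3 CPM in SGA CON replicate 6, with the nearest of its group at 60.01 CPM. CDC45 was 9.64 CPM in AGA CON replicate 2, nearest 7.73 CPM. ORC6 was 2.13 CPM in SGA CON replicate 2, nearest 1.67 CPM. RRM1 was 43.0 CPM in AGA CON replicate 1, nearest 36.3 CPM, and 44.2 CPM in SGA HF replicate 3, nearest 36.8 CPM. SMC4 was 11.1 CPM in AGA CON replicate 2, nearest 7.42 CPM. TYMS was 3.05 CPM in SGA HF replicate 2, nearest 2.34 CPM. CDC45 and SMC4 come from a library low in neuron genes, whose part in these values was not tested.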

How the results depend on the processing

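Of the recomputed counts of members called 121 stayed within 1.5 times the main count, or at 0 where the main count was 0, and 5 did not. Only the cohort contrast had a main count above 0. A stricter threshold could not change a count of 0. Between cohorts the 121 include 3 genes in place of 2 without the litter of SGA HF replicate 4, and 3 without both low-neuron litters, of which RFC4 alone was called before. For size, adjusting within the contrast gave 1 gene. Between cohorts DESeq2 gave 1 and an FDR p of 0.05 gave 0. For sex without the litter of SGA HF replicate 4 the count was 1, and for diet over litters without the litters of both libraries low in neuron genes it was 1. Of the recomputed medians over the members, 114 stayed within an SD, over litters or piglets, of the main median. The 12 that did not are given next. Of the main medians they moved from, only that for size is given above. The median log2 fold change for size was -0.11 with sex only, -0.11 with sex and cohort, -0.14 in cohort 2 alone and -0.11 with litter as a replicate block (pairing of littermates). For SGA CON minus AGA CON it was -0.0262 with sex only, -0.0284 with sex and cohort, -0.0420 in cohort 1, -0.0628 in cohort 2 and -0.0437 with the replicate block. In cohort 2 alone the median was 0.14 for diet, 0.19 for AGA HF minus AGA CON and 0.0655 for SGA HF minus SGA CON. The cause was not tested.

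Among recomputed single gene values 20 changed sign, and the main values of these genes were not called. For diet, TOP2A was 0.0137 with no filter, 0.0813 with sex only, 0.0810 with sex and cohort, 0.0779 in cohort 1, 0.0890 in cohort 2, 0.0455 without SGA HF replicate 4 and 0.0548 without both low-neuron libraries. CDK1 was 0.00946 with limma voom, 0.13 with sex only, 0.13 with sex and cohort, 0.27 in cohort 2, 0.0130 without SGA HF replicate 4 and 0.12 without both low-neuron libraries. PCNA was 0.0101 in cohort 2 and 0.0218 without both low-neuron libraries, and MKI67 was 0.14 in cohort 2. In cohort 2 alone size gave -0.00906 for ORC6 and -0.0899 for MCM2, and the interaction gave -0.0131 for CDC45 and 0.37 for CENPA. The replicate block changed no call of a member. Leaving out both low-neuron libraries, TMM over all genes, and the alternatives of the litter fits were chosen after seeing the data. At 13 tested genes with a mean under 20 counts, depth limits what can be seen.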
